A study of Mus musculus with 18 samples.

Results

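The 10 genes described here encode the fatty acid elongases and desaturases measured in mouse liver: Elovl1, Elovl2, Elovl3, Elovl5, Elovl6, Fads1, Fads2, Fads3, Scd1 and Scd2. They were picked by gene name from 54532 genes in the table of expression values, with earlier results of these data known. All 10 passed the filter of a mean of at least 1 FPKM (fragments per kilobase of gene length after scaling for depth), as did 10216 genes in all. Elovl4, Elovl7, Scd3 and Scd4, of the same families, stayed below it, with means between 0.0034 FPKM for Elovl4 and 0.189 FPKM for Elovl7.

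Liver RNA came from 18 male C57BL/6J mice in 3 groups of 6, each library being a separate mouse that had been fasted overnight. Normal control mice (NC) ate a standard diet and received no SZ-A. HFD control mice ate the high-fat diet D12492 for 14 weeks and then received saline. SZ-A mice ate the same diet and then received SZ-A, the alkaloid fraction of Ramulus Mori (mulberry twig). In both of these groups the high-fat diet was continued. Treatment lasted 8 weeks by the deposited description and 6 weeks by the methods of the study, and the dose and route of SZ-A are not tied to the sequenced mice in either. The mouse NC6 has a high-fat diet among its labels, was kept in NC by its title, and was also left out in turn.

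Elongases add carbon pairs to fatty acyl chains in the endoplasmic reticulum, and desaturases introduce double bonds with electrons passed on by cytochrome b5. Scd enzymes make monounsaturated acids such as oleate from saturated ones, and Elovl6 lengthens palmitate to stearate. Fads1, Fads2, Elovl5 and Elovl2 act in the pathway from dietary linoleate and linolenate to arachidonate and docosahexaenoate. In liver, many of these genes are known as targets of the sterol regulatory element-binding proteins and are held down by polyunsaturated fat in the diet.

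Fragments on genes ranged from 17163191 to 20493907 per mouse. NC5 stood apart from its group, being the highest or lowest of the 6 mice in 64.5% of tested genes, against 19.1% to 49.2% for the other 17 mice, of which SZ-A5 had the largest share. In these mice the clock genes also stood apart. Dbp, a clock output factor, was at 0.990 FPKM in NC5 and at 2.78 to 14.0 FPKM in the other NC mice, and at 7.22 FPKM in SZ-A5 and at 29.4 to 47.1 FPKM in the other SZ-A mice. Of 12 clock genes tested, 3 were higher and 1 lower in HFD than in NC mice, and 4 were higher and 1 lower in SZ-A than in NC mice. Among all tested genes, 10.7% were higher and 9.49% lower in HFD than in NC mice. The shares in SZ-A against NC mice were 5.31% and 4.3%. Dbp, at means of 7.42, 24.8 and 31.5 FPKM for NC, HFD and SZ-A mice, was among the higher ones in both. Hepatocyte markers were abundant in all mice, with Alb at a mean of 24982 FPKM. Their sum over 9 genes, of which Alb was the largest part, was 44102 to 62269 FPKM in NC, 29767 to 48946 FPKM in HFD and 35337 to 61059 FPKM in SZ-A mice. Of the 9, 4 were called lower in HFD than in NC and 0 higher, while 3 had a positive log2 fold change. Cyp2e1, for one, was at a mean of 4921 FPKM in HFD and 4678 FPKM in NC mice. Summed macrophage markers, 9 genes, ranged from 172 to 324 FPKM in NC, 306 to 492 FPKM in HFD and 270 to 396 FPKM in SZ-A mice, with 5 of the 9 higher in HFD than in NC. Of 9 stellate cell markers 7 were higher in HFD than in NC and 0 lower, and their sum was 63.9 to 79.5 FPKM in NC, 75.4 to 144 FPKM in HFD and 71.8 to 95.9 FPKM in SZ-A mice. The 8 adipocyte markers summed to 8.41 to 16.4 FPKM in NC, 37.4 to 151 FPKM in HFD and 9.88 to 45.6 FPKM in SZ-A mice. Cfd, at 52.4 FPKM in HFD, made up most of the HFD sum, while Plin1, Lep and Retn were under 0.1 FPKM on average and Adipoq was at 0.119 FPKM. The part of the clock and of these cell types in the results on elongases and desaturases was not tested. In bulk liver, fewer cells of a type and less RNA per cell cannot be told apart.

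The genes spanned a wide range of levels. Scd1 had the highest mean, at 425 FPKM over the 18 mice, but not the highest median in every group, since its median of 317 FPKM in NC mice was below that of Elovl5 (328 FPKM) and its median of 174 FPKM in SZ-A mice below that of Fads2 (271 FPKM). Fads2 (237 FPKM), Elovl5 (182 FPKM), Elovl2 (168 FPKM), Elovl3 (89.8 FPKM) and Fads1 (80.4 FPKM) followed on average. Between neighbours in this order, Scd1 and Fads2, Elovl5 and Elovl2, and Elovl3 and Fads1 overlapped in every group, whereas Fads2 lay above Elovl5 in all HFD and SZ-A mice and Elovl2 above Elovl3 in all SZ-A mice. Elovl1 (9.01 FPKM) and Elovl6 (7.94 FPKM) were an order below and overlapped each other in every group, and Fads3 (1.84 FPKM) and Scd2 (1.08 FPKM) were the least abundant. FPKM divides by gene length, and the length behind Fads2 was 1508 bases, against 3295 bases for all its exons in the GENCODE M21 annotation, so that its place in the order is less certain than that of Elovl5, whose length was 3522 bases in both. The same holds to a lesser degree for Fads1 (3456 against 4812 bases), Elovl3 (1494 against 1975 bases) and Fads3 (3269 against 3792 bases).

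**Figure D1:**
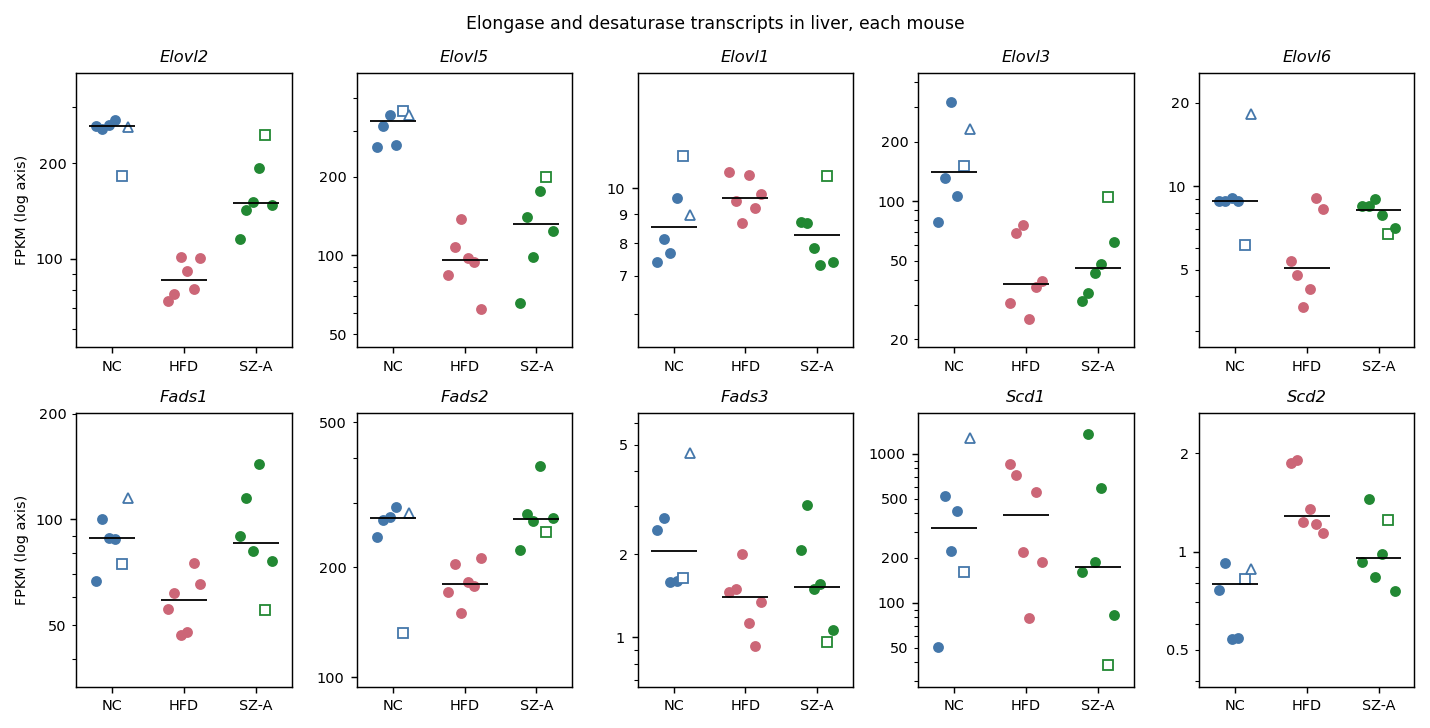
FPKM of each gene on a log axis, 1 symbol per mouse, with a line at the median of each group of 6 mice. The triangle is NC6 and the open squares are NC5 and SZ-A5. The HFD mice of Elovl2, Elovl5 and Elovl3 lie below all NC mice, those of Elovl2 and Fads2 lie below all SZ-A mice, and Scd1 spreads from 38.3 to 1351 FPKM within the SZ-A group.

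High-fat feeding went with lower transcript levels of the polyunsaturated elongases. In HFD against NC mice, Elovl5, Elovl2, Elovl3 and Fads1 fell and Scd2 rose, by limma on log2(FPKM + 0.1), where a call needed an adjusted p below 0.05 together with a change of more than 1.2-fold. These were 4 of 10 genes lower, where 9.49% of all tested genes were lower, and 1 of 10 higher, where 10.7% were. The HFD and NC mice did not overlap for Elovl5, Elovl2, Elovl3 and Scd2, 4 of the 10 genes, against 10.5% of tested genes. The median log2 fold change of the 10 genes was -0.65, beside -0.03 for all genes tested. With each mouse scaled to the same FPKM total, the median of all genes moved to 0.15 and the split of all calls went from 1092 higher and 970 lower to 2100 higher and 334 lower. Elovl5, Elovl2 and Elovl3 were still lower and Scd2 higher, and Fads1 (adjusted p = 0.0734) was no longer called. Elovl1 was called higher in addition, at a log2 fold change of 0.34 against 0.15 before this scaling.

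In SZ-A against HFD mice, none of the 10 genes passed the adjusted threshold in limma, 0 higher and 0 lower. Among all tested genes 0.0783% were called higher and 0.0685% lower. At an unadjusted p under 0.05 there were 6 of the 10 genes, as there were 1515 of 10216 genes in all, and voom on whole fragments called 1 of the 10, Elovl2. Elovl2 and Fads2 were higher in every SZ-A mouse than in every HFD mouse, 2 of the 10 genes without overlap, against 1.28% of tested genes. The log2 fold change was positive for 7 of the 10 genes with a median of 0.31, beside 0.03 for all genes tested, and negative for Scd1, Scd2 and Elovl1.

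In SZ-A against NC mice, Elovl5, Elovl3 and Elovl2 were lower, 3 of 10 genes where 4.3% of all tested genes were called lower, and 0 were higher, where 5.31% were. By limma at an unadjusted p under 0.05 there were 4 of the 10 genes, the 3 named and Scd2, which was higher. Only Elovl5 had no overlap between the groups, 1 of 10 genes against 5.5% of tested genes. Without the mice NC5 and SZ-A5, an alternative added after the data were seen, the count stayed at 3. Each group of mice serves in 2 of the 3 comparisons, which are therefore not independent.

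**Figure D2:**
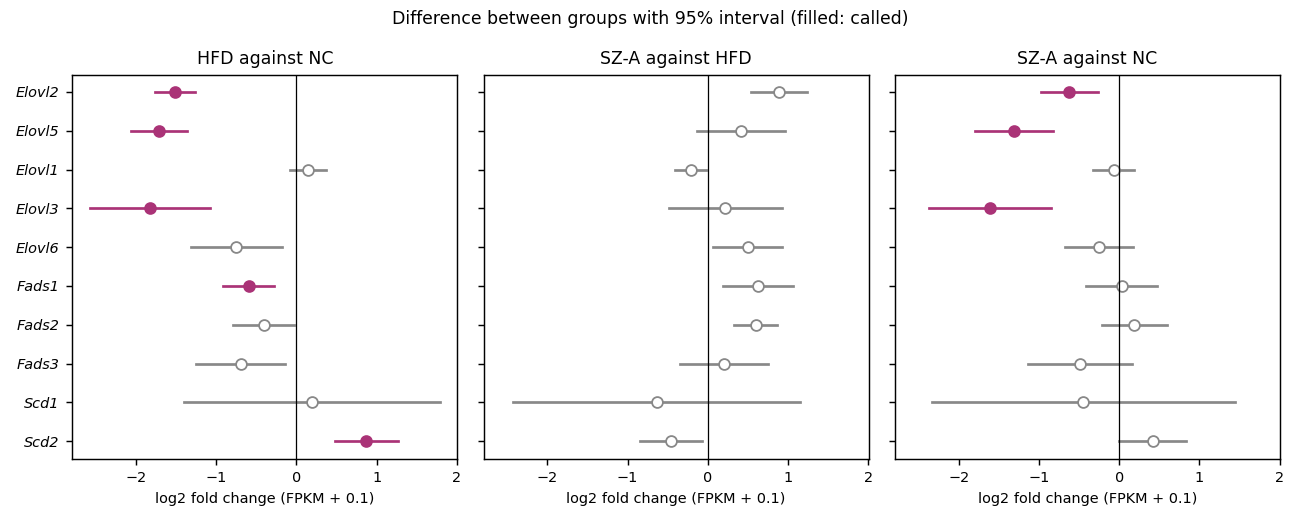
Log2 fold change of FPKM + 0.1 for each gene in the 3 comparisons, with the 95% interval from limma, 6 mice a group. Filled symbols mark the genes past the threshold, which were 5 in HFD against NC, 0 in SZ-A against HFD and 3 in SZ-A against NC.

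Elovl2 and Elovl5, the elongases of polyunsaturated acids, were both lower in HFD than in NC mice, as was Elovl3, which had no promoter entry. The 250 bases before the start sites of Elovl2 and Elovl5 are shown. The Pearson r between these 2 genes differed by group, at 0.016 among HFD, 0.889 among SZ-A and -0.535 among NC mice (n = 6 each). With 6 mice a low r cannot show that 2 genes are unrelated. As deviations from the group mean over 18 mice, r was 0.499 and did not pass (permutation p = 0.0974, adjusted p = 0.398). It fell to 0.027 without SZ-A1 and SZ-A5, the mice farthest from the median of Elovl2. Of the 10 genes, 6 had a promoter entry in the RefSeq table for GRCm38.p6, the build of the files, and Elovl3, Fads1, Scd1 and Scd2 had none. The first window, on the minus strand, is chr13:41220404-41220653 for Elovl2, and the second, on the plus strand, is chr9:77917115-77917364 for Elovl5. Capitals mark matches on either strand to the motifs searched, which were the sterol regulatory element TCACNCCAC, the CCAAT box CCAAT, the E-box CACGTG and the GC box GGGCGG.
Elovl2: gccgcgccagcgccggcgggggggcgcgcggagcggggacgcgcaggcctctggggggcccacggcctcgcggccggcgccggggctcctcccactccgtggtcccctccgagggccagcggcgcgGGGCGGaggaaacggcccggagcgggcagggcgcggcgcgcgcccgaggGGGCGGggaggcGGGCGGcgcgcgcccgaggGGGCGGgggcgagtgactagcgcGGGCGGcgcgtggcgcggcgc
Elovl5: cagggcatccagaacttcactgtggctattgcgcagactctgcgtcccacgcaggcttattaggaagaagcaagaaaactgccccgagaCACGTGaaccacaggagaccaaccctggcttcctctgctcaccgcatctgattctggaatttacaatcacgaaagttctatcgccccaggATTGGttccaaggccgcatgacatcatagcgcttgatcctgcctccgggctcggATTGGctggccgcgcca
The windows differed in make-up. The printed Elovl2 window held 5 GC boxes and 87.2% G and C, while a second RefSeq window of Elovl2, chr13:41220163-41220412, held 0 GC boxes at 79.6% G and C. Elovl5 held 2 CCAAT boxes, both read as ATTGG on the printed strand, and 1 E-box at 55.6% G and C. The GC box was present in 33.0% of 32536 windows of the same length, the CCAAT box in 33.8%, the E-box in 6.04% and the sterol regulatory element in 1.04%. None of the 8 windows of Elovl1, Elovl2, Elovl5, Elovl6, Fads2 and Fads3 held a sterol regulatory element by these letters, which says only that they are not in these 250 bases.

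Elovl2 (chromosome 13, 41182381 to 41220405, minus strand, GRCm38) lengthens the longest polyunsaturated acids on the way to docosahexaenoate. Its level was 182 to 274 FPKM with a median of 261 FPKM in NC mice, 73.7 to 101 FPKM with a median of 85.9 FPKM in HFD mice, and 116 to 245 FPKM with a median of 149 FPKM in SZ-A mice. All HFD mice lay below all NC mice and below all SZ-A mice, and the SZ-A range reached into the NC range through NC5, the lowest NC mouse, with SZ-A4 and SZ-A5 above it. The mean in HFD mice was 35.0% of that in NC mice, at a log2 fold change of -1.51 ± 0.12 (SE; limma, adjusted p = 1.25e-05), and this call held in all 24 alternatives. In SZ-A mice the mean was 66.3% of NC and 190% of HFD. The difference from HFD was 0.89 ± 0.16 on the log2 scale, with a 95% interval of 0.54 to 1.24, all 6 SZ-A mice above the HFD mean and an adjusted p of 0.0557, so that it missed the threshold. It passed in 9 of 24 alternatives, with adjusted p over the 24 between 0.0169 and 0.321, among them without SZ-A1 (0.0454), SZ-A2 (0.0393) or SZ-A5 (0.0364). Against NC mice Elovl2 stayed lower, at -0.62 ± 0.16 (SE; limma, adjusted p = 0.0313), a call kept in 13 of 25 alternatives. It was lost without any single one of NC1, NC2, NC3, NC4, NC6, SZ-A1, SZ-A2, SZ-A3 and SZ-A6, at an adjusted p of 0.0541 to 0.0708, and kept without NC5, SZ-A4 or SZ-A5.

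Elovl5 (chromosome 9, 77917364 to 77984519, plus strand) lengthens the products of Fads2 and Fads1. It ranged from 259 to 356 FPKM (median 328 FPKM) in NC mice, from 62.2 to 138 FPKM (median 95.8 FPKM) in HFD mice and from 66.0 to 199 FPKM (median 132 FPKM) in SZ-A mice. Every NC mouse was above every mouse of the other groups, and the HFD and SZ-A mice overlapped. The log2 fold change in HFD against NC was -1.72 ± 0.16 (SE; limma, adjusted p = 3.86e-05), a level 3.29-fold lower, and it was called in all 24 alternatives. In SZ-A against NC it was -1.31 ± 0.23 (adjusted p = 0.00406), called in 24 of 25 alternatives, the exception being no filter on low values. In SZ-A against HFD it was 0.41 with a 95% interval of -0.14 to 0.96 (adjusted p = 0.483). Elovl5 stood at 42.7% of the NC mean in SZ-A mice, where Elovl2 stood at 66.3%.

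Elovl3 (chromosome 19, 46131897 to 46135307, plus strand) makes saturated and monounsaturated very long chains and is known for a daily rhythm in liver. NC mice ranged from 78.9 to 318 FPKM with a median of 141 FPKM, HFD mice from 25.5 to 75.6 FPKM with a median of 38.1 FPKM, and SZ-A mice from 31.3 to 105 FPKM with a median of 45.8 FPKM. The lowest NC mouse, NC1, was just above the highest HFD mouse, HFD3, and in SZ-A mice only SZ-A5 reached the NC range. Its log2 fold change was -1.83 ± 0.35 in HFD against NC (SE; limma, adjusted p = 0.00278), the lowest of the 10 genes, and the call held in all 24 alternatives. It was -1.61 ± 0.35 in SZ-A against NC (adjusted p = 0.0128), called in 24 of 25 alternatives. The difference between SZ-A and HFD mice was 0.22, with a 95% interval of -0.48 to 0.92 (adjusted p = 0.799).

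Elovl6 and Elovl1, which act mainly on saturated chains, were not called in any comparison. Elovl6 (chromosome 3, 129532355 to 129638495, plus strand) ranged from 6.13 to 18.3 FPKM (median 8.87 FPKM) in NC mice, from 3.66 to 9.05 FPKM (median 5.06 FPKM) in HFD mice and from 6.72 to 9.02 FPKM (median 8.17 FPKM) in SZ-A mice. Of the NC mice 4 lay within 8.84 to 9.03 FPKM, with NC6 at the top and NC5 at the bottom, and HFD6 and HFD5 were at 8.28 and 9.05 FPKM while the other HFD mice were at or under 5.35 FPKM. The log2 fold change was -0.75 ± 0.26 in HFD against NC (SE; limma, adjusted p = 0.0583), called in 5 of 24 alternatives, among them without NC5 (0.0312), HFD5 (0.0285) or HFD6 (0.0415), and 0.50 ± 0.20 in SZ-A against HFD (adjusted p = 0.268). The start of Elovl6 overlaps the antisense gene Gm35986, at 2.20 FPKM, and the library kit did not keep strand. The overlap is short, from 129532355 to 129532388, where the length of Elovl6 was 6431 bases. Elovl1 (chromosome 4, 118428093 to 118432953, plus strand) ranged from 7.40 to 11.4 FPKM (median 8.54 FPKM) in NC mice, from 8.67 to 10.7 FPKM (median 9.63 FPKM) in HFD mice and from 7.32 to 10.5 FPKM (median 8.27 FPKM) in SZ-A mice, and the 3 groups overlapped. The 95% interval of its log2 fold change was -0.08 to 0.37 in HFD against NC and -0.41 to -0.02 in SZ-A against HFD.

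Fads2 (chromosome 19, 10064164 to 10101503, minus strand), the Δ6 desaturase that opens the polyunsaturated pathway, was the desaturase that differed most evenly between SZ-A and HFD mice. It ranged from 132 to 293 FPKM with a median of 273 FPKM in NC mice, from 150 to 212 FPKM with a median of 180 FPKM in HFD mice and from 223 to 380 FPKM with a median of 271 FPKM in SZ-A mice. The lowest SZ-A mouse, SZ-A1, was above the highest HFD mouse, HFD6. In NC mice 5 of 6 were also above all HFD mice, and NC5 was below all of them. The difference in SZ-A against HFD was 0.60 ± 0.12 on the log2 scale (SE; limma, adjusted p = 0.0774), with a 95% interval of 0.33 to 0.86. It was called with sample weights (adjusted p = 0.0272) and in no other of the 24 alternatives. In HFD against NC the log2 fold change was -0.41 ± 0.18 (adjusted p = 0.118), and without NC5 it was called, at -0.58 with an adjusted p of 0.00133.

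Fads1 (chromosome 19, 10182888 to 10196870, plus strand), the Δ5 desaturase that makes arachidonate, lies 81.4 kb from Fads2. It ranged from 66.9 to 115 FPKM (median 88.4 FPKM) in NC mice, from 46.7 to 75.0 FPKM (median 58.8 FPKM) in HFD mice and from 55.4 to 144 FPKM (median 85.5 FPKM) in SZ-A mice. NC1 and NC5 fell within the HFD range, and so did SZ-A5, while the other 5 SZ-A mice were above all HFD mice. Its log2 fold change was -0.60 ± 0.15 in HFD against NC (SE; limma, adjusted p = 0.0120), called in 22 of 24 alternatives. It was 0.63 ± 0.20 in SZ-A against HFD (adjusted p = 0.181), with a 95% interval of 0.19 to 1.06. In SZ-A against NC the interval was -0.41 to 0.47 around a value of 0.03. Fads3 (chromosome 19, 10041548 to 10059671, plus strand), a desaturase of sphingoid bases, lies 4.49 kb from Fads2 and averaged 2.44 ± 1.19 FPKM for NC mice, 1.39 ± 0.370 FPKM for HFD mice and 1.70 ± 0.762 FPKM for SZ-A mice (SD, n = 6). It was not called in any comparison, and its log2 fold change of -0.70 in HFD against NC (adjusted p = 0.0689) rested on 56 to 288 fragments a mouse.

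Scd1 (chromosome 19, 44394451 to 44407709, minus strand), the main hepatic stearoyl-CoA desaturase, varied more between mice of a group than between groups. The levels ran from 50.2 to 1272 FPKM (median 317 FPKM) in NC mice, from 79.0 to 848 FPKM (median 386 FPKM) in HFD mice and from 38.3 to 1351 FPKM (median 174 FPKM) in SZ-A mice, a 25.4-fold, a 10.7-fold and a 35.3-fold range. NC6 and SZ-A2 were the highest mice and NC1 and SZ-A5 the lowest. These differences rested on 3234 to 129644 fragments a mouse, so that counting error was small beside them. The group means were close, at 440 ± 442, 435 ± 317 and 402 ± 505 FPKM (SD, n = 6). The intervals of the log2 fold change were wide, from -1.40 to 1.79 in HFD against NC, from -2.43 to 1.15 in SZ-A against HFD and from -2.34 to 1.45 in SZ-A against NC, and so included a doubling as well as a halving.

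Scd2 (chromosome 19, 44293676 to 44306864, plus strand), the isoform known mainly from brain and from the liver before birth, was about 1 FPKM and was the gene that rose in HFD mice. It ranged from 0.539 to 0.926 FPKM in NC mice (median 0.794 FPKM), from 1.14 to 1.91 FPKM in HFD mice (median 1.29 FPKM) and from 0.758 to 1.45 FPKM in SZ-A mice (median 0.955 FPKM). The HFD mice lay above all NC mice, with HFD1 and HFD2 at the top, and the SZ-A mice overlapped both groups. The log2 fold change was 0.87 ± 0.18 in HFD against NC (SE; limma, adjusted p = 0.00485), on 54 to 239 fragments a mouse, and it was called in all 23 alternatives in which it was tested. In SZ-A against HFD it was -0.46 ± 0.18 (adjusted p = 0.253), with all 6 SZ-A mice below the HFD mean. Macrophage and stellate cell markers were higher in the same HFD mice as a group, with 5 of 9 and 7 of 9 tested genes called. The macrophage marker Lyz2 was at 114 FPKM against 56.3 FPKM in NC. Of 8 adipocyte markers 4 were tested and 3 were called higher. Below the filter, Adipoq (0.0913 against 0.202 FPKM in NC), Plin1 (0.0126 against 0.0742 FPKM) and Retn (0.0318 against 0.0643 FPKM) had lower means in HFD. Lep (0.0375 against 0 FPKM) had a higher one. Whether macrophages, stellate cells or adipocytes carry the Scd2 transcripts was not tested.

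Genes that work with these enzymes moved less uniformly. Of the 9 tested genes of the elongation cycle and electron transfer, Cyb5a and Cyb5b, the cytochromes b5 of the endoplasmic reticulum and of the outer mitochondrial membrane, rose in HFD against NC mice, Cyb5b by 0.63 ± 0.14 on the log2 scale (SE; limma, adjusted p = 0.00801). Hacd3, a dehydratase of the cycle, fell by 0.43 (adjusted p = 0.0225). The ketoacyl reductase Hsd17b12, at 76.2 FPKM in HFD and 63.2 FPKM in NC mice, and the cytochrome b5 reductase Cyb5r3, at 65.0 and 52.0 FPKM, were not called. Among 8 acyl-CoA activation and binding genes, Dbi, the acyl-CoA binding protein, and Acsl5, an acyl-CoA synthetase, fell, and 0 rose. Among 9 peroxisomal genes Abcd2, a fatty acyl-CoA transporter, was among those that rose and 0 fell, while Scp2, at 1183 FPKM in HFD and 1365 FPKM in NC mice, and Acaa1b, at 1447 and 1302 FPKM, the most abundant of that list, were not called. Of 4 genes of incorporation into phospholipid, Agpat3 fell, from 61.8 ± 3.29 to 46.1 ± 3.06 FPKM (SD, n = 6), and of the related desaturases Degs1, which acts on dihydroceramide, fell and Fads6, at 21.4 FPKM in HFD and 22.9 FPKM in NC mice, did not pass the test.

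The genes that supply and regulate the pathway were split. Of 8 substrate supply genes, Thrsp, a lipogenic protein, rose in HFD mice from 3.78 ± 1.80 to 38.5 ± 37.9 FPKM (SD, n = 6; adjusted p = 0.00115 by limma), Mid1ip1 rose and the citrate carrier Slc25a1 fell. Fasn, the fatty acid synthase, was at 8.41 FPKM in HFD and 9.76 FPKM in NC mice and was not called. Of 14 regulators, Srebf1 rose, from 6.96 to 20.9 FPKM (log2 fold change 1.53 ± 0.34, SE; adjusted p = 0.00752), as did Mlxipl and Pparg, and Insig2 and Scap fell. Insig2, a retention protein for the precursor of the sterol regulatory element-binding proteins, fell from 220 ± 137 to 71.5 ± 22.4 FPKM (adjusted p = 0.00325), with 491 FPKM in NC5. Over these 7 lists, limma called 9 of the 54 tested genes higher and 8 lower in HFD against NC mice. Among all tested genes 10.7% were called higher and 9.49% lower there. In SZ-A against HFD mice limma called 0 of the 54, and 12 had an unadjusted p under 0.05, among them Fasn, at 14.3 against 8.41 FPKM. Of all 10216 tested genes 1515 had such a p. In SZ-A against NC mice 4 of the 54 were higher, among them Thrsp, Mid1ip1 and Mlxipl, and 5 were lower, which were Insig2, Me1, Acsl4, Agpat3 and Degs1. Of all tested genes 5.31% were called higher and 4.3% lower in that comparison.

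The 10 genes were also compared over the mice within groups, which the comparison of means does not use. Deviations of log2(FPKM + 0.1) from the group mean over 18 mice gave 45 pairs of genes, each tested by permuting mice within their group (two-sided, 100000 resamples). Fads1 and Scd1 varied together, at a Pearson r of 0.824 (permutation p = 0.00024, adjusted p = 0.0108 over the 45 pairs) and a Spearman rho of 0.818 (permutation p = 0.00035, adjusted p = 0.0158). Within groups of 6 mice r was 0.967 for NC, 0.517 for HFD and 0.897 for SZ-A mice, and without SZ-A4 and SZ-A5, the mice farthest from the median of Fads1, it was 0.809. Without NC5 and SZ-A5 r was 0.775 (permutation p = 0.00187), and the adjusted p of 0.0842 missed the threshold. Elovl6 and Fads1 passed by Pearson r (0.592, permutation p = 0.00122, adjusted p = 0.0275) and not by Spearman rho (0.695, permutation p = 0.00263, adjusted p = 0.0592). Without NC6 and HFD5, the farthest in Elovl6, r fell to 0.468. The other 43 pairs did not pass, among them Fads1 and Fads2, neighbours on chromosome 19, at an r of 0.536 (permutation p = 0.0196, adjusted p = 0.221).

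**Figure D3:**
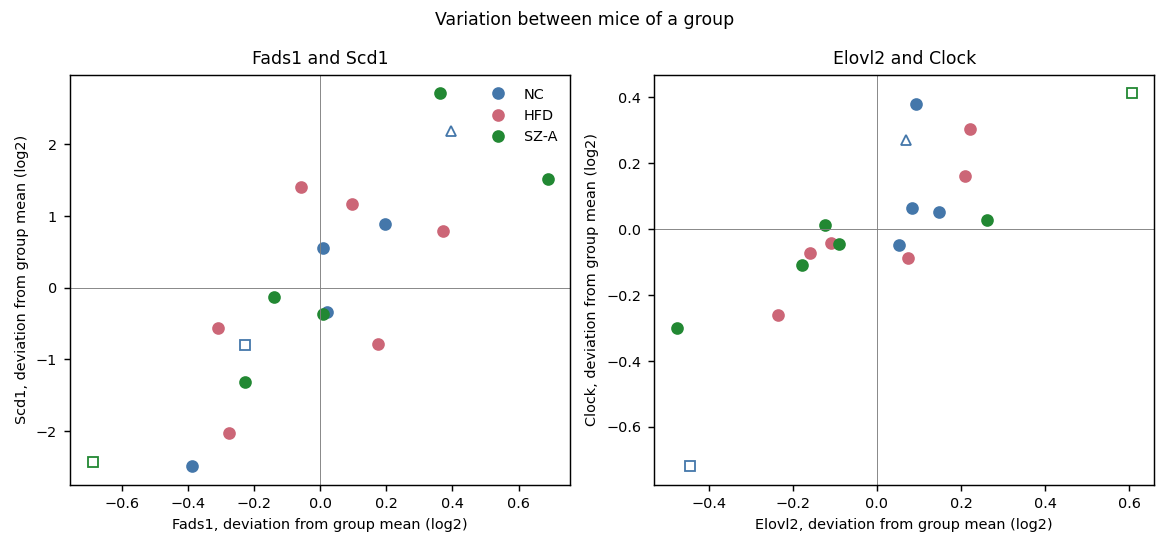
Deviation of each of the 18 mice from its group mean in log2(FPKM + 0.1), Scd1 against Fads1 on the left and Clock against Elovl2 on the right. The triangle is NC6 and the open squares are NC5 and SZ-A5. Both pairs rise together, and SZ-A5 lies at the low end on the left and at the high end on the right. Clock was picked from all tested genes for its likeness to Elovl2, so that its rise follows from the choice and is not a test.

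For each of the 10 genes, the genes outside the list whose deviations were most like it were found among all tested genes, as a description without a test, since each stands at the top of 10206 values. For Fads1 they included Tm7sf2, a sterol reductase, at an r of 0.909 over the 18 mice. For Scd1 they were H2-Q10, a secreted class I histocompatibility protein of liver, at 0.930, and Ugt1a5, which shares exons with other Ugt1a genes, at 0.921. Elovl2 was most like Snx16 (0.866) and the circadian factor Clock (0.825), and without NC5 and SZ-A5 these were 0.765 and 0.740. Elovl5 was most like Lgals9 (0.886) and the glycine decarboxylase Gldc (0.819). For Elovl3 the genes were Chka, a choline kinase, at 0.870 and Fam43a at 0.870, and for Elovl6 they were Cpsf7 at 0.791 and Strn at 0.765. Fads2 was most like Kcnk6 (0.869) and Ppp4r3b (0.865), which were 0.653 and 0.753 without NC5 and SZ-A5. Fads3 was most like the taurine transporter Slc6a6 (0.885) and Map2k5 (0.859), Elovl1 like Atp6v1c1 (0.828) and 2310061I04Rik (0.821), which were 0.625 and 0.636 without NC5 and SZ-A5, and Scd2 like Micu2 (0.810) and Adm (0.801). Among the pathway genes, Scd1 was most like Cyb5r3 and next most like Slc25a1, the latter at an r of 0.821, and Fads1 was most like Slc25a1, at 0.858.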

How the data were processed

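Liver RNA of 18 mice was selected on poly-T beads, made into NEBNext Ultra libraries and sequenced as paired-end reads. HISAT2 2.0.5 was the authors' aligner, against GRCm38, and the submitters' notes name featureCounts 1.5.0-p3. The deposited values are FPKM per mouse, not pooled and without a filter, and the tool that made them is not given in the sources used here. FPKM times gene length gave whole fragments for 100% of values within 0.05, and the library size behind them was scaled between mice by the authors.

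The unit being FPKM, the count test of the study was replaced by limma 3.58.1 in R 4.3.3 (lmFit, eBayes with trend) on log2(FPKM + 0.1), a scale that understates the change of low genes, for genes with a mean of at least 1 FPKM. Each fit held the 2 groups compared without a block, and p-values were Benjamini-Hochberg adjusted over all tested genes. Pseudocounts, filters, scalings, voom on whole fragments, a common fit, sample weights, a replicate block and each mouse left out were alternatives. Scripts were tested on simulated data. Permutations, motifs and plots used Python 3.11.15, numpy 2.4.6, pandas 2.3.3, scipy 1.17.1 and matplotlib 3.10.9.

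The genes, the lists and the pathway groups were chosen with earlier results of these data known. Named from each pathway and clock list were the called genes, at most 5, and the 2 most abundant others, and for each of the 10 genes the 2 most like it. Genes named outside this rule, Lyz2, Cfd and the other cell markers, stand beside a result. A few of the genes this rule names were left out of the text. Mice of a group differed beyond sampling noise, the lowest chi-square per degree of freedom between them being 18.6. The replicate numbers did not pair the mice.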

Additional observations from a re-analysis of the deposited data

Results flagged for a closer look

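In 30 sets of 6 mice (10 genes in 3 groups), 5 values stood apart from the rest of their group by Dixon's criterion, which chance alone meets in about 1 of 20 groups. NC5 was low for Elovl2, at 182 FPKM with the nearest NC mouse at 257 FPKM, and for Fads2, at 132 FPKM with the nearest at 242 FPKM. NC6, the mouse with the conflicting diet label, was high for Elovl6, at 18.3 FPKM with the nearest at 9.03 FPKM, and for Fads3, at 4.67 FPKM with the nearest at 2.70 FPKM. SZ-A4 was high for Fads2, at 380 FPKM with the nearest at 280 FPKM.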

How the results depend on the processing

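Over the single-gene fold changes of the 10 genes there were 784 results under alternatives, of which 736 kept direction and call, 18 gained a call, 19 lost one and 11 changed sign. In HFD against NC, 5 genes were called, 3 with a fold change over 2, and 5 to 7 with each mouse left out (7 without NC5, which added Elovl6 and Fads2). In SZ-A against HFD, 0 were called, and 1 (Elovl2) with a mean FPKM of at least 5, a common sum, all 18 mice in one fit or either voom fit, 2 (with Fads2) with sample weights, and 0 to 1 with each mouse left out, 1 being Elovl2 without SZ-A1, SZ-A2 or SZ-A5. In SZ-A against NC, 3 were called, 0 without a filter on low values, where 54532 genes were tested, and 2 to 3 with each mouse left out. Of the pairs of genes, 2 passed, and 0 passed in NC, HFD or SZ-A mice alone (6 mice each). With 6 mice there are too few permutations for a pair to pass on its own after adjustment, however strong it is. The counts of 0 in single groups therefore do not show whether the pairs hold there. Without NC5 and SZ-A5, 0 pairs passed, and 0 to 3 with each mouse left out. The count was 0 without SZ-A5, and 1 without each of NC5, NC6, HFD1, HFD3, HFD4 and HFD5.

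The changes of sign were all in uncalled values. Scd1 in HFD against NC was -0.046 with sample weights and -0.30 to 0.63 with each mouse left out, negative without NC1 (-0.30), HFD1 (-0.09) or HFD2 (-0.04). In SZ-A against NC, Fads1 was -0.014 with sample weights and -0.11 to 0.17 with each mouse left out, negative without NC1, NC5, SZ-A2 or SZ-A4. Elovl1 was -0.14 to 0.0063 there, positive without NC5, and Scd1 was -0.99 to 0.039, positive without SZ-A5. Same-numbered mice of 2 groups correlated at -0.117 to 0.292, so that the numbers are only names. With the number as a replicate block 5, 0 and 2 genes were called in the 3 comparisons in turn, Elovl2 in SZ-A against NC being lost (adjusted p = 0.0819). Leaving out a mouse also lowers the number of samples, and dropping the filter raises the number of genes tested, but the cause of these changes was not tested. Depth limits Fads3 and Scd2, at 54 to 288 fragments a mouse.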
